A study of Mus musculus with 8 samples.

Results

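Coagulation and fibrinolysis genes were examined in the livers of 8 mice, all wild type and of the C57BL/6J strain. Of the 33467 genes in the deposited expression table, 33 were taken by their symbols, a list of clotting factors, their inhibitors, the fibrinogen chains, the plasminogen system and the receptors through which these act. All 33 were found, each in 1 row. By their known source in liver, 22 were set apart as hepatocyte-made plasma proteins and 11 as products of other liver cells or proteins of the cell surface.

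The control group was 4 mice on a standard diet and the DDC group 4 mice on a diet with 1% 3,5-diethoxycarbonyl-1,4-dihydrocollidine, both for 4 weeks. DDC is a porphyrinogenic compound, fed to mice as a model of cholestatic injury and biliary fibrosis. Each library came from 1 liver and is called a biological replicate in the labels. Animals were kept specific pathogen-free with free access to food and water, and the labels give neither their age nor their sex. The question that the groups address here is how transcripts for making, restraining and dissolving a clot differ between the diets.

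Clotting runs through a cascade of plasma proteases, most of them made by hepatocytes and several carboxylated in a vitamin K-dependent step before secretion. Tissue factor on cell surfaces starts the cascade with factor VII, thrombin ends it by cutting fibrinogen into fibrin, and factor XIII crosslinks the fibrin. Plasmin, cut from plasminogen by the tissue-type and urokinase-type activators, dissolves fibrin and also acts on matrix proteins.

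Libraries held 61179103 to 81664058 counts, and the 33 members took 2.51% ± 0.117 (SD, n = 4) of all counts in controls and 2.03% ± 0.101 in DDC. Values below are TMM-scaled CPM (counts brought to a common library size), where the trimmed mean of M-values sets the scale from the bulk of genes and every fold change sets DDC against control. The scale shifts the fold change of every gene given here, and for some genes it changes the direction or the call. The factors were 0.792 to 0.815 for controls but 1.21 to 1.27 for DDC, and the median gene had a log2 fold change of 0.073 under TMM and 0.70 with library totals alone. Under TMM the calls split into 5893 higher and 5205 lower genes (53.1% higher), and with library totals alone into 11505 and 1750 (86.8% higher). Each member that changes its call between the scales is therefore given on both.

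Transcripts of hepatocyte-made clotting proteins were lower in DDC livers, and transcripts of plasminogen activators, their receptor, tissue factor and the thrombin-binding receptors Thbd and F2r were higher. Of the 22 hepatocyte-made members, 21 fell and 1, Pros1, did not pass, against 26.6% of all 19535 tested genes that fell (edgeR's quasi-likelihood test at an adjusted p of 0.05). Their median log2 fold change was -1.02, while that of all tested genes was 0.073. Of the 11 other members 9 rose, 1 fell and 1 did not pass, against 30.2% of all genes that rose, and their median log2 fold change was 1.55. DDC libraries lay wholly below controls for 21 of the 22 hepatocyte-made members (25.7% of all genes) and wholly above them for 8 of the 11 others (26.9% of all genes). With library totals alone 17 of the 22 fell and 1 rose (8.96% of all genes fell), and 10 of the 11 others rose (58.9% of all genes rose). The median log2 fold changes on that scale were -0.39 for the hepatocyte-made members, 2.17 for the others and 0.70 for all tested genes. Falls of at least 2-fold were called for 12 of the 22 under TMM (8.85% of all genes) and for 1, F7, with library totals alone (3.52%). Rises of at least 2-fold were called for 8 of the 11 others under TMM (19.5% of all genes) and for 9 with library totals alone (34.3%).

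**Figure D1:**
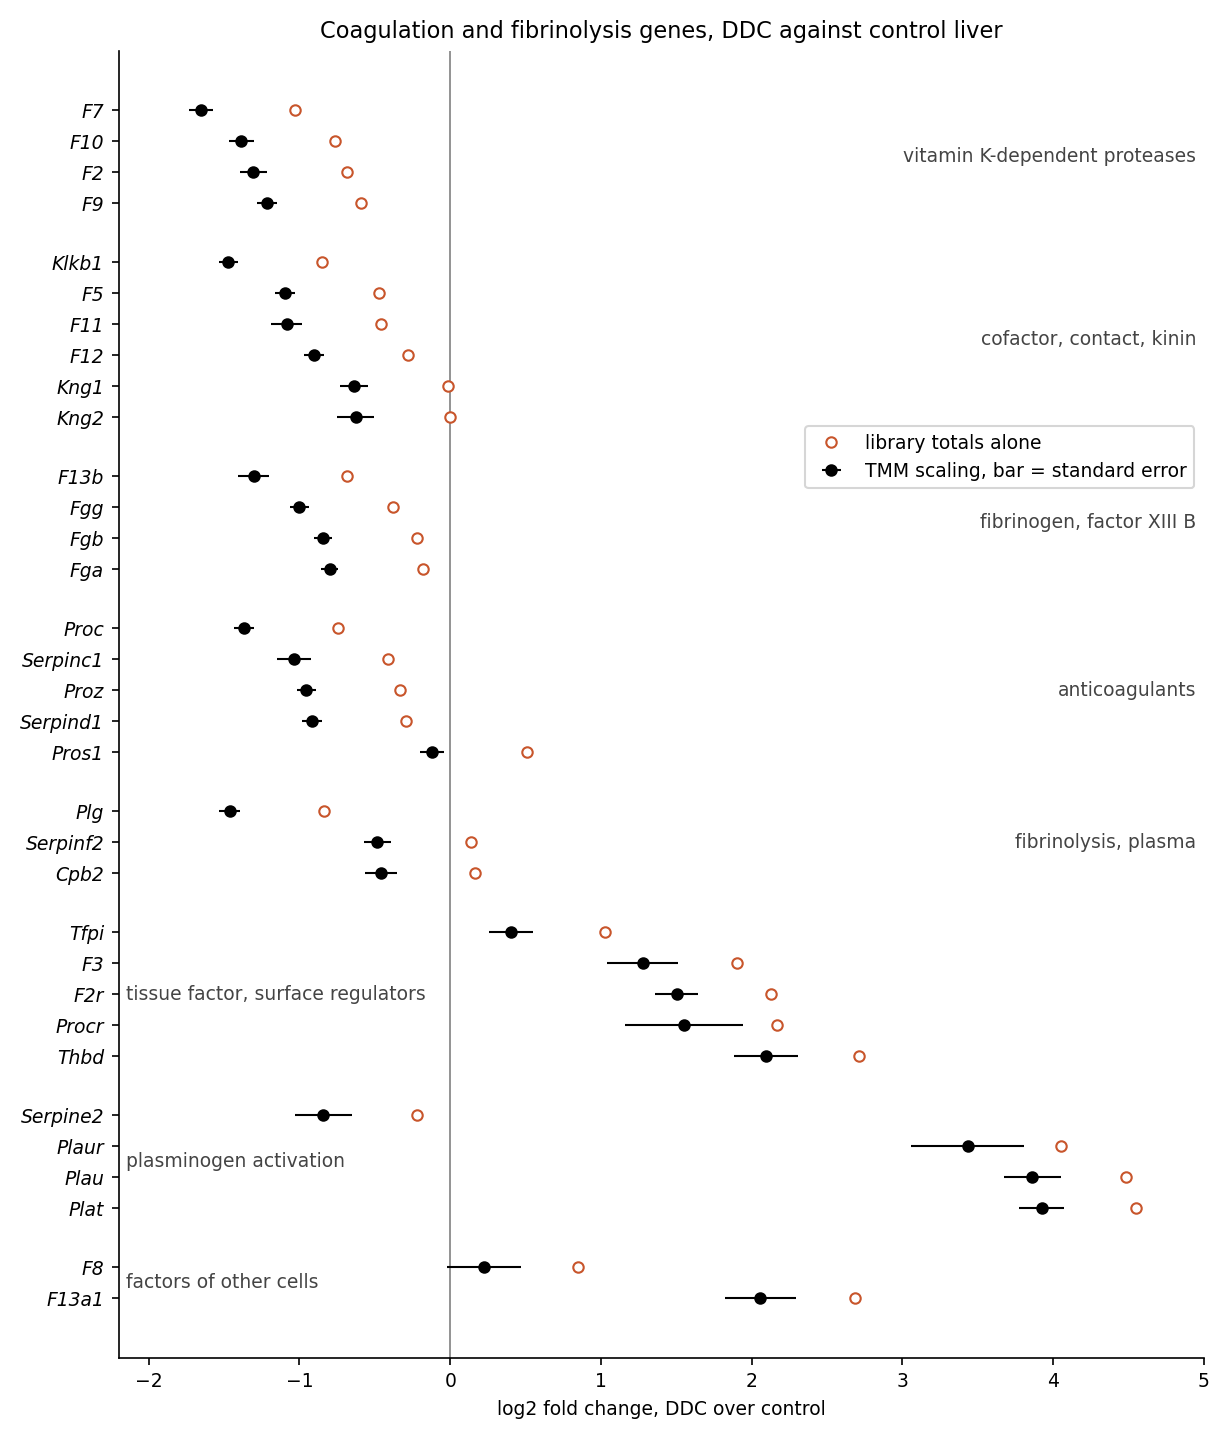
The log2 fold change of each of the 33 members (x axis, DDC over control) is drawn by role, with filled points for TMM scaling and bars for the standard error, and open points for library totals alone. The open points sit to the right of the filled ones for every member, and Plat, Plau and Plaur stand farthest right on both scales.

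Hepatocyte markers were lower as well. Of 14 such markers 13 fell, against 26.6% of all tested genes, with a median log2 fold change of -1.23. On library totals 11 of the 14 fell (8.96% of all genes), Ahsg and Hpx rose (58.9% of all genes), and the median was -0.61. Their summed FPKM (fragments scaled by gene length and library total) was 64630 to 73508 in controls and 44366 to 50357 in DDC, with none at 0. Erythroid markers were lower too, 6 of 6 tested, with a median log2 fold change of -1.01 under TMM. Of these calls 3 held whichever 1 library was left out, and on library totals 2 of 6 were called lower, against 8.96% of all genes. DDC 1 was the highest DDC library for 6 of the 7 listed erythroid markers (32.5% of all genes). Their summed FPKM was 748.4 to 1014 in controls and 444.5 to 1075 in DDC. In whole liver, fewer hepatocytes and less RNA per hepatocyte cannot be told apart, and the part of either in the values below was not tested.

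The vitamin K-dependent proteases fell the most as a group, 4 of 4, with a median log2 fold change of -1.35. F7, factor VII, which tissue factor binds to start clotting, was 155, 131, 144 and 129 CPM in controls 1 to 4 and 41.0, 47.3, 47.2 and 42.5 CPM in DDC 1 to 4. Its groups were well apart, a 3.14-fold fall (log2 -1.65 with SE 0.08, edgeR adjusted p = 2.29e-07), the deepest among the hepatocyte-made members. F10, factor X, the protease on which both starting routes converge, was 620, 508, 615 and 514 CPM in controls and 213, 223, 216 and 212 CPM in DDC. The DDC libraries were closely alike, and F10 fell 2.61-fold. F2, prothrombin, the precursor of thrombin, was 2484, 2130, 2511 and 2191 CPM in controls against 837, 1041, 945 and 946 CPM in DDC, a 2.47-fold fall with no overlap. F9, factor IX, the protease lacking in hemophilia B, was 201, 180, 186 and 196 CPM in controls and 81.9, 89.2, 79.7 and 77.9 CPM in DDC, a 2.32-fold fall. All 4 also fell with library totals alone, by 1.51- to 2.04-fold. F7 and F10 are neighbours on chromosome 8 of GRCm38, at 13026034 to 13035809 and 13037308 to 13056676, with 1499 bases between them, and Proz follows at 13060914.

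The cofactor, contact and kinin proteins fell in 6 of 6 cases, by unequal amounts. Klkb1, plasma prekallikrein, which cuts kininogen to release bradykinin, was 226, 215, 218 and 236 CPM in controls and 74.6, 85.6, 83.0 and 79.5 CPM in DDC. It fell 2.77-fold, and no DDC library came near the controls. F5, factor V, the cofactor of factor X, was 708 to 728 CPM in controls and 309 to 361 CPM in DDC and fell 2.14-fold. F11, factor XI, was 70.1, 88.1, 72.4 and 90.6 CPM in controls against 41.5, 39.1, 33.3 and 37.6 CPM in DDC, and fell 2.12-fold. F12, factor XII, which starts the contact route, fell 1.87-fold. The kininogens, Kng1 and Kng2, from which bradykinin is cut, fell least, 1.56-fold and 1.54-fold. On library totals their log2 fold changes were -0.01 and -0.0036 and neither passed (edgeR adjusted p = 0.907 and 0.982). Kng2 and Kng1 lie 28383 bases apart on chromosome 16 and 4.93% of the 100-base words in Kng1 transcripts also occur in Kng2, so a small part of their reads could be split between them. Gm45753, a model that shares 25189 bases and its strand with Klkb1, held at most 181 counts in a library against 5784 or more for Klkb1.

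Fibrinogen, the soluble precursor of fibrin, is built from 3 chains encoded side by side on chromosome 3: Fgg at 83007724 to 83015049, Fga at 83026076 to 83033627 and Fgb, on the other strand, at 83040141 to 83049863. The 250 bases before each RefSeq start are shown because the chains share 1 locus and fell together, and tissue factor is set beside them as a member that rose. They come from RefSeq on GRCm38.p6, at chr3:83007474-83007723 (Fgg, plus strand), chr3:83025903-83026152 (Fga, plus strand), chr3:83049864-83050113 (Fgb, minus strand) and chr3:121723287-121723536 (F3, plus strand), each written 5′ to 3′ on the gene's strand. The RefSeq start of Fga lies 77 bases inside the gene as deposited, so the end of its window overlaps the gene, while the other 3 starts are those deposited. In all 4 windows capitals mark matches on either strand to GTTAAT, part of the site of the hepatocyte factor HNF1, to CAAAGT, part of the site of HNF4, to TTGCNNAA, a C/EBP word, to TGANTCA, the AP-1 word, to CTGGGAA, the type II acute phase word, and to GGGCGG, the Sp1 box.
Fgg: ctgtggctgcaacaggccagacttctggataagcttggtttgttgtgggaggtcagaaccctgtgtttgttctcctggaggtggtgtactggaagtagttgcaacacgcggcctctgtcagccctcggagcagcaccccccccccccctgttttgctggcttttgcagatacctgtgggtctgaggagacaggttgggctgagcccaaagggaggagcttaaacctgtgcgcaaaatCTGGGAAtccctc
Fga: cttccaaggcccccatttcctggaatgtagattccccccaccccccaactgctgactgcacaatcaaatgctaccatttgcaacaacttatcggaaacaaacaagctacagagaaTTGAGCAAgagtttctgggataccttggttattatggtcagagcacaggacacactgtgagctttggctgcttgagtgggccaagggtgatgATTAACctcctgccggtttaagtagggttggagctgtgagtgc
Fgb: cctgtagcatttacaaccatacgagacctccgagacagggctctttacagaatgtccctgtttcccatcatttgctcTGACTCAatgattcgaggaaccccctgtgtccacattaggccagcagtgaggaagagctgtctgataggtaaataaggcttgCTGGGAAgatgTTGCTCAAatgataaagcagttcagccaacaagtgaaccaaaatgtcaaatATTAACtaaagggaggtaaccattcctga
F3: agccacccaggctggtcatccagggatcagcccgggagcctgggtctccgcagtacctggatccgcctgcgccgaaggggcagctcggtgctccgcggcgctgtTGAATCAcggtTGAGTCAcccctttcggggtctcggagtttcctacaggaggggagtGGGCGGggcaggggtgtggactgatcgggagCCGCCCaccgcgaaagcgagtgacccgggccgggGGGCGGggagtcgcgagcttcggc
The HNF1 word was found in Fga and Fgb, at -43 and -29 from the RefSeq start (for Fga inside the gene as deposited), and the C/EBP word in the same pair at -135 and -80. CTGGGAA was found in Fgb at -91 and in Fgg at -13, and TGANTCA in Fgb at -173 and in F3 at -146 and -135. F3 also held GGGCGG at -89, -58 and -24. Among the 27 of 33 members with a window in the table, GTTAAT was in 4 of 19 hepatocyte-made and 0 of 8 other windows, against 6.43% of all 32851 windows. CAAAGT was in 4 of 19 and 2 of 8, against 12.6%. TTGCNNAA was in 6 of 19 and 2 of 8, against 9.56% of all, and CTGGGAA in 3 of 19 and 1 of 8, against 9.10%. TGANTCA was in 2 of 19 and 4 of 8, against 6.75%, and GGGCGG in 2 of 19 and 5 of 8, against 32.7%. The RefSeq starts farthest from the deposited ones were those of F8 and Kng2, 2275 and 381 bases inside the gene as deposited. Their windows thus lie within the genes, and the counts above include a CAAAGT match in F8 and a TTGCNNAA match in Kng2. All these matches describe the letters only. Kng1, Plat, Plau, Plg, Proc and Thbd had no window.

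All 3 fibrinogen chains fell, and by group means they had the highest FPKM of all members on both diets, although in DDC 3 Kng1 (923.7) was above Fgb (903.6). Fga, the alpha chain, was 4789, 4733, 4736 and 4758 CPM in controls and 2677, 2810, 2739 and 2689 CPM in DDC. It fell 1.74-fold, with little spread in either group (log2 -0.80 with SE 0.05, edgeR adjusted p = 1.79e-06). Fgb, the beta chain, was 4979, 4897, 4911 and 4928 CPM in controls and 2602, 2876, 2821 and 2686 CPM in DDC, a 1.79-fold fall. Fgg, the gamma chain, was 3727, 3686, 3614 and 3842 CPM in controls and 1780, 1941, 1907 and 1806 CPM in DDC. Its fall, from a mean of 3717 ± 95.3 to 1858 ± 78.0 CPM (SD, n = 4 each), was the largest of the chains as a fold change. On library totals the chains still fell, with log2 fold changes of -0.18, -0.22 and -0.38. In FPKM the chains made up 48.2% ± 1.91 (SD, n = 4) of the summed hepatocyte-made members in controls and 49.3% ± 0.793 in DDC, a difference inside the spread of the controls. Fgg was the member with the highest FPKM in controls, at 1383, and Fga in DDC, at 1082. F13b, the carrier subunit of factor XIII, was 280, 220, 278 and 221 CPM in controls and 104, 108, 98.8 and 92.7 CPM in DDC and fell 2.47-fold.

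**Figure D2:**
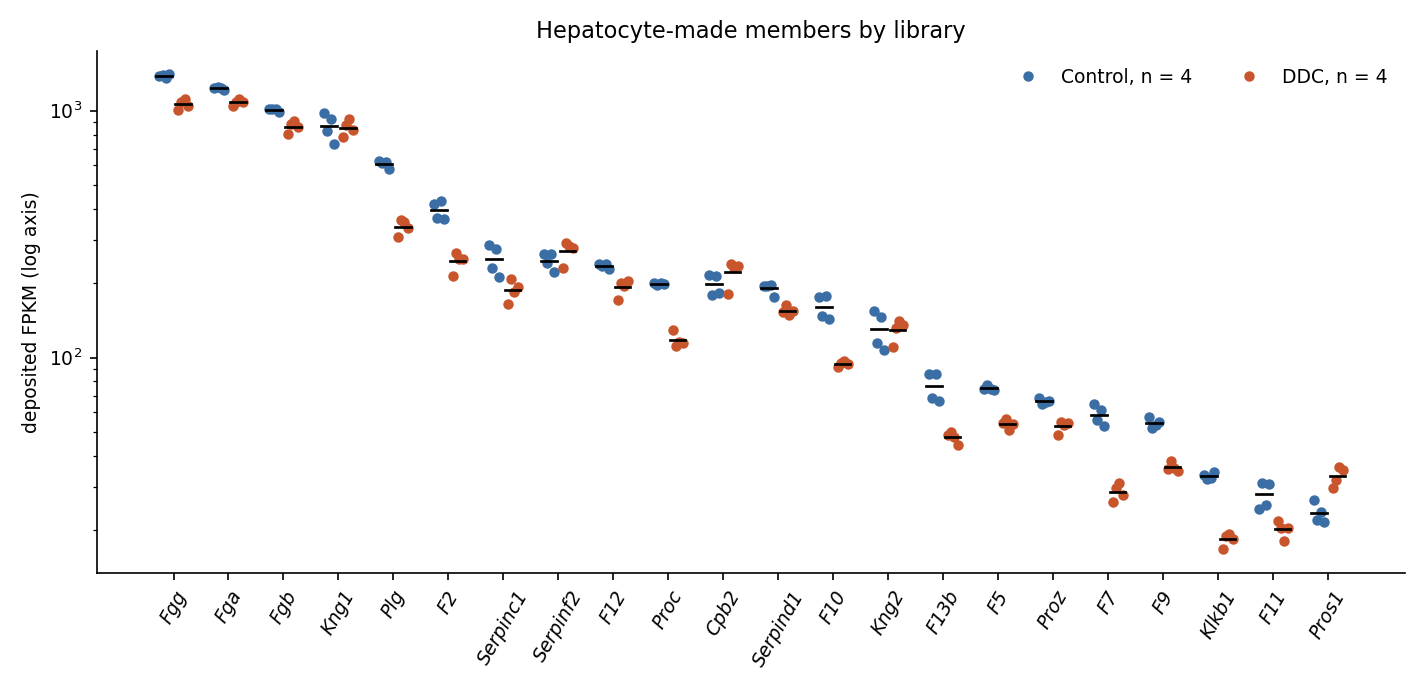
Deposited FPKM (y axis, log scale) of the 22 hepatocyte-made members, ordered by their control mean, with 1 point per library and bars at the group means. FPKM is scaled to library totals, and on that scale Kng1, Kng2, Cpb2 and Serpinf2 overlap between groups while Pros1 lies higher in DDC.

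Among the hepatocyte-made anticoagulants 4 of 5 fell. Proc, protein C, which once activated cuts factors V and VIII, was 636, 619, 630 and 642 CPM in controls and 272, 237, 235 and 233 CPM in DDC, a 2.59-fold fall. Serpinc1, antithrombin, the main plasma inhibitor of thrombin, was 3129, 2492, 3007 and 2374 CPM in controls and 1200, 1521, 1289 and 1361 CPM in DDC. It fell 2.05-fold, and controls 1 and 3 stood above controls 2 and 4. Serpind1, heparin cofactor II, and Proz, protein Z, the cofactor of a factor X inhibitor, fell 1.89-fold and 1.94-fold. Serpind1 lies within Pi4ka on the opposite strand, for which 2889 to 4089 counts were given per library against 22132 to 28965 for Serpind1. Pros1, protein S, the cofactor of protein C, which endothelial cells make too, was 139, 114, 123 and 116 CPM in controls and 103, 112, 120 and 118 CPM in DDC. Its groups overlapped and it did not pass (log2 fold change -0.12, SE 0.08, edgeR adjusted p = 0.225), while on library totals it was higher (0.51, adjusted p = 0.000536).

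The 3 hepatocyte-made fibrinolysis proteins all fell, plasminogen the most. Plg, plasminogen, was 2971, 2872, 2935 and 2827 CPM in controls and 966, 1151, 1073 and 1022 CPM in DDC, a 2.76-fold fall. Serpinf2, alpha-2-antiplasmin, which blocks plasmin, was 674 to 788 CPM in controls and 454 to 583 CPM in DDC, a 1.40-fold fall. Cpb2, a carboxypeptidase that shields fibrin from plasmin, fell 1.37-fold, from 414 ± 41.6 to 301 ± 36.2 CPM (SD, n = 4 each). On library totals Plg still fell (log2 fold change -0.84, edgeR adjusted p = 4.18e-06), whereas Serpinf2 and Cpb2 had values of 0.14 and 0.17 and did not pass (adjusted p = 0.196 and 0.193).

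Tissue factor and the surface regulators of clotting rose in 5 of 5 cases, from low levels. F3, tissue factor (chromosome 3, 121723537 to 121735048), was 2.48, 5.43, 3.67 and 4.77 CPM in controls and 10.1, 8.26, 12.1 and 9.11 CPM in DDC. Every DDC library was above the highest control, and F3 rose 2.42-fold (log2 fold change 1.28, SE 0.24, edgeR adjusted p = 0.00129). Tfpi, the inhibitor of tissue factor with factor VII, was 6.23, 6.57, 7.72 and 7.25 CPM in controls and 11.1, 8.19, 10.03 and 7.50 CPM in DDC. Its groups overlapped, and its 1.32-fold rise passed narrowly (adjusted p = 0.0375). That call ended without control 1, 2 or 4 or without DDC 1 or 3, with adjusted p from 0.063 to 0.109, and on library totals Tfpi rose 2.04-fold.

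Thbd, thrombomodulin, the endothelial receptor that turns thrombin towards protein C, was 4.87, 5.25, 4.09 and 4.65 CPM in controls and 30.1, 17.3, 15.0 and 18.1 CPM in DDC. It rose 4.27-fold, with DDC 1 above the other 3 libraries, and without DDC 1 the log2 fold change went from 2.09 to 1.81. Procr, the endothelial protein C receptor, was 1.59, 0.49, 1.45 and 0.578 CPM in controls, from 25 to 82 counts a library, and 3.43, 3.15, 2.89 and 2.60 CPM in DDC. It rose 2.93-fold, and its controls lay as a higher pair (1 and 3) and a lower pair (2 and 4). Its log2 fold change was 1.55 with all libraries, 2.49 without controls 1 and 3 and 0.98 without controls 2 and 4. F2r, the main thrombin receptor (PAR1), was 15.7, 18.2, 12.8 and 22.1 CPM in controls and 49.5, 49.3, 46.5 and 49.6 CPM in DDC, a 2.83-fold rise.

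Plat, Plau and Plaur had the largest rises of all members. Plat, tissue-type plasminogen activator (chromosome 8, 22757727 to 22782844), was 1.24, 1.16, 1.18 and 1.59 CPM in controls and 21.9, 18.2, 21.7 and 16.8 CPM in DDC. The lowest DDC library was far above the highest control, and the rise was 15.2-fold (log2 fold change 3.92, SE 0.15, edgeR adjusted p = 7.93e-08). Plau, urokinase-type activator (chromosome 14, 20836660 to 20843385), was 1.24, 0.745, 1.01 and 0.702 CPM in controls, from 34 to 64 counts a library, and 13.05, 13.4, 14.1 and 13.4 CPM in DDC. Its 14.5-fold rise had an SE of 0.19 in log2 units (edgeR adjusted p = 2.51e-07). Plaur, the receptor that holds urokinase at the cell surface (chromosome 7, 24462484 to 24475968), was 1.01, 3.61, 1.29 and 1.45 CPM in controls and 20.9, 17.6, 22.3 and 18.7 CPM in DDC. It rose 10.8-fold, with control 2 above the other controls, and without control 2 the log2 fold change went from 3.43 to 3.98. Control 2 was also the highest control for 5 of 9 cholangiocyte markers (24.1% of all genes), such as Krt19, a keratin of bile ducts, at 60.7 CPM against 5.37 to 13.3, and Epcam at 12.3 against 1.88 to 2.93. It was far above the other controls for Acta2, smooth muscle actin, at 56.2 CPM against 4.09 to 6.11. Of the 10 stellate cell and fibroblast markers Acta2 was the only 1 with control 2 as the highest control. Their part in the Plaur value was not tested.

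Serpine2, protease nexin 1, a cell-bound inhibitor of thrombin and plasminogen activators, moved the other way. It was 18.2, 30.0, 23.4 and 35.3 CPM in controls and 16.9, 12.9, 15.7 and 14.1 CPM in DDC, a 1.79-fold fall (edgeR adjusted p = 0.00426). The groups came close, control 1 being only just above DDC 1, and on library totals Serpine2 did not pass (log2 fold change -0.22, adjusted p = 0.326).

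The factors made by non-hepatocyte cells differed from each other. F13a1, the catalytic subunit of factor XIII, made by macrophages and platelets, was 1.57, 2.16, 3.08 and 3.20 CPM in controls and 8.25, 10.5, 11.1 and 11.9 CPM in DDC, a 4.17-fold rise (edgeR adjusted p = 5.52e-05). It overlaps a pair of antisense gene models, and no source used here says whether strand entered the counting. F8, factor VIII, the cofactor of factor IX, made mainly by sinusoidal endothelium, was 7.63, 7.70, 7.36 and 6.22 CPM in controls and 13.5, 5.67, 7.56 and 7.04 CPM in DDC. DDC 1 alone exceeded the controls, and F8 did not pass (log2 fold change 0.23, SE 0.25, adjusted p = 0.455). DDC 1 was likewise the highest DDC library for 7 of 9 sinusoidal and 6 of 10 vascular endothelial markers (32.5% of all genes), such as Cdh5, an endothelial cadherin, at 35.1 CPM against 22.1 to 25.7, and their part in the F8 and Thbd values of DDC 1 was not tested. Without DDC 1 the log2 fold change of F8 was -0.12, and on library totals with all libraries it was 0.85 (adjusted p = 0.013).

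**Figure D3:**
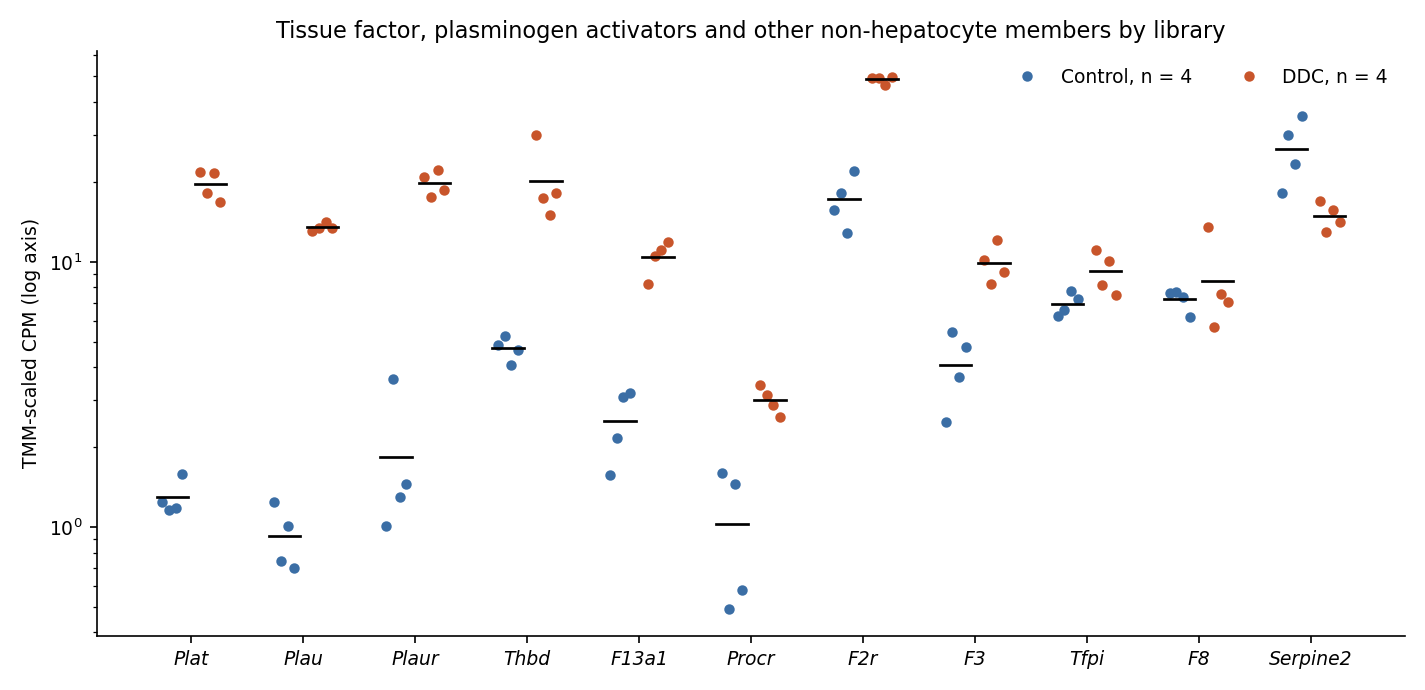
TMM-scaled CPM (y axis, log scale) of the 11 members outside the hepatocyte-made group, ordered by fold change, with 1 point per library and bars at the group means. The groups are apart for the 7 members from Plat to F2r and for F3, overlap for Tfpi and F8, and are reversed for Serpine2.

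Markers of the cells that could carry these transcripts moved too, counted here by TMM calls and with sums of deposited FPKM, which follow library totals. Of all tested genes 30.2% were called higher and 26.6% lower under TMM. All 12 macrophage and monocyte markers rose, with a summed FPKM of 86.0 to 104.8 in controls and 880.4 to 974.2 in DDC. Of 9 cholangiocyte markers 8 rose (32.2 to 62.7 and 489.0 to 787.6, most of the DDC sum from Spp1), and of 10 stellate cell and fibroblast markers 7 rose (48.7 to 62.0 and 189.3 to 225.0). Sinusoidal endothelial markers rose in 6 of 9 cases (30.5 to 35.6 and 66.3 to 81.8) and vascular endothelial markers in 6 of 10 (33.2 to 39.8 and 77.7 to 91.1). On library totals all 9 and all 10 were called higher, against 58.9% of all genes. The median log2 fold changes of these 2 lists on that scale were 1.155 and 1.079, against 0.70 for all tested genes. Neutrophil markers rose in 5 of 8 cases (29.7 to 40.5 and 85.7 to 177.5). Of 4 tested megakaryocyte and platelet markers 1, Pf4, rose and 1, Ppbp, fell (1.84 to 3.51 and 9.79 to 12.9), with Gp6 at 0 in DDC. Pf4 carried the higher sum, with a mean FPKM of 0.867 in controls and 9.18 in DDC. No marker of the other lists named here was at 0 in a whole group. More cells of a type and more RNA per cell cannot be told apart here, and the part of these cells in the rises was not tested.

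Ratios of 2 members within a library do not depend on its scale. Of 10 such pairs 6 differed between the diets, each with its groups fully apart (exact two-sided permutation p = 0.0286, the smallest that 4 against 4 allows, and 0.0477 adjusted over the 10 pairs). That adjusted value is under 0.05 only because 6 pairs share the smallest p. The pairs were chosen with earlier results of these data known. Of all tested genes 52.6% had their groups apart, and no such share was computed over other pairs of genes. Plg over Serpinf2, plasminogen over its product's inhibitor, was 3.77, 4.05, 3.79 and 4.19 in controls and 2.13, 1.97, 1.99 and 1.92 in DDC, a 1.97-fold lower ratio. F13a1 over F13b, the catalytic over the carrier subunit of factor XIII, was 0.0056 to 0.014 in controls and 0.079 to 0.128 in DDC, 10.6-fold higher. F3 over Tfpi was 0.399, 0.827, 0.475 and 0.658 in controls and 0.917, 1.01, 1.21 and 1.21 in DDC, 1.90-fold higher. F2 over Serpinc1, thrombin's precursor over its inhibitor, was 1.21-fold lower in DDC, Fgg over Fga 1.15-fold lower and Fgb over Fga 1.03-fold lower. When any 1 library was left out, none of the 6 passed (exact permutation adjusted p of 0.0572 or more), and their directions stayed. The smallest p of 35 assignments is 0.0286 as well, which passes after adjustment only where at least 6 of the 10 pairs reach it. The sizes moved little for Plg over Serpinf2 (log2 difference -1.01 to -0.95) and F13a1 over F13b (3.14 to 3.59).

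The other 4 pairs did not pass. F10 over Proc was 0.801 to 0.976 in controls and 0.782 to 0.939 in DDC. Kng1 over Kng2 was 7.51 to 8.57 in controls and 7.32 to 8.38 in DDC. Plau over Plat was 0.442 to 1.00 in controls and 0.597 to 0.799 in DDC, and the DDC ratios lay inside the wide range of the controls. Plaur over Plau was 0.813, 4.84, 1.28 and 2.06 in controls and 1.31 to 1.60 in DDC, and control 2 set most of the control spread (exact permutation p = 0.714 for this pair, 0.857 to 1 for the other 3).

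**Figure D4:**
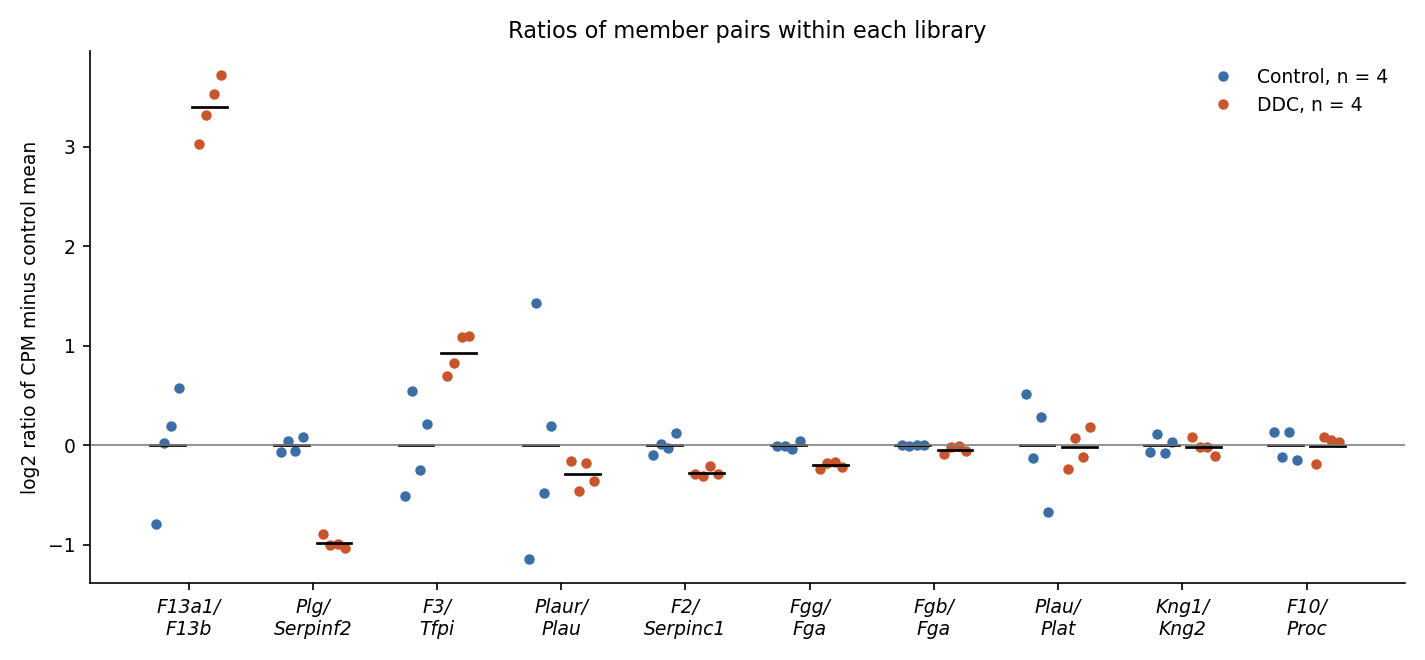
The log2 ratio of each of 10 member pairs in each library, less the control mean of that pair (y axis), with 1 point per library and bars at the group means. F13a1/F13b and F3/Tfpi lie above the controls and Plg/Serpinf2 below them, while the 4 groups of points for Plaur/Plau, Plau/Plat, Kng1/Kng2 and F10/Proc overlap the controls.

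Genes around the cascade were read from 4 further lists, against the same shares of all genes (30.2% higher and 26.6% lower under TMM, 58.9% and 8.96% on library totals). All 5 genes of vitamin K-dependent carboxylation and factor export fell, Lman1, the cargo receptor that carries factors V and VIII out of the endoplasmic reticulum, the most at 2.22-fold, from 284 ± 26.1 to 128 ± 8.32 CPM (SD, n = 4 each). On library totals only Lman1 and Vkorc1 still fell, and Mcfd2, the partner of Lman1, was higher (log2 fold change 0.28, edgeR adjusted p = 0.00448). Of 8 further circulating inhibitors and modulators 7 fell, with the largest fall in Serping1, the C1 inhibitor, which also blocks factor XII and kallikrein. Serping1 was 899, 969, 847 and 1074 CPM in controls and 234, 305, 285 and 312 CPM in DDC, 3.33-fold lower. On library totals 4 of the 8 fell, and the list's median log2 fold change went from -0.99 to -0.36.

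Of 7 tested further genes listed with the plasminogen system 7 rose on both scales. The list reaches beyond plasminogen itself, to St14, a membrane serine protease, and Spint1 and Spint2, membrane-bound inhibitors of serine proteases. In control 2, where Epcam was high too, Spint1 was 7.72 CPM against 0.799 to 0.990 CPM in the other controls. St14 was 7.80 CPM there against 0.818 to 1.24 CPM. The calls of Spint1 and Spint2 were not firm. Spint1 lost its call when any library but control 2 was left out (edgeR adjusted p from 0.053 to 0.0828), and Spint2 without control 1, 3 or 4 (0.0544 to 0.0567). The last list mixed protease-activated receptors, platelet adhesion genes and other clotting-related genes, and of 6 tested 3 rose and 2 fell. Its thrombin receptors, F2rl2 and F2rl3, were dropped by the count filter and not tested. On library totals Vwf, von Willebrand factor, rose as well (log2 fold change 0.83, edgeR adjusted p = 0.00515). Thbs1, thrombospondin 1, a platelet and matrix glycoprotein, was 3.24 to 5.68 CPM in controls and 52.0 to 64.0 CPM in DDC, the largest rise of that list. Tfpi2, a matrix-bound protease inhibitor, was 38.5 to 50.6 CPM in controls and 14.1 to 15.0 CPM in DDC, the largest fall, 3.03-fold.

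Libraries within a group were not alike for the hepatocyte-made members. Controls 1 and 3 both stood above controls 2 and 4 for 13 of the 22, against 25.9% of all tested genes, and below them for 2. DDC 1 was the lowest DDC library for 15 of the 22, against 34.7% of all genes. Whichever 1 library was left out, 21 of the 22 were called lower and 8 or 9 of the 11 others were called higher.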

How the data were processed

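The deposited gene counts are whole numbers that the authors did not normalize, and the deposited FPKM values are the authors' counts scaled by gene length and library total. Both tables hold equal counts for all 33467 shared genes. The submitters' processing notes name cutadapt, FastQC, HISAT2, StringTie and DESeq2, with the builds GRCm38 and mm10 and no versions or roles. Poly(A) selection and dUTP second strands were used, per the labels' protocols, and 1 batch label covers all samples. Coordinates are those of the deposited table.

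The test was edgeR 4.0.16 in R 4.3.3 on the counts of all 8 libraries, filtered by filterByExpr and scaled by TMM, with a robust quasi-likelihood fit and p-values adjusted after Benjamini and Hochberg over 19535 genes, two-sided at 0.05, checked on simulated counts. The standard error is the log2 fold change over the square root of F. Members, gene lists, pairs and the naming rule were chosen with earlier results of these data known. The rule gave library values to called members of at least 2-fold, the fibrinogen chains and uncalled members, plus the largest called rise and fall of each pathway list. A pathway gene that the rule names is not reported here. Serpine2, Tfpi, Serpinf2, Mcfd2, Spint1, Spint2, St14, Vwf, F2rl2, F2rl3 and the named markers are given beyond it, chosen after their values were seen. Fcn3 of the sinusoidal list had no row in the table. No library pair within a group was alike to within counting noise, but the pairs were unequal. Controls 1 and 3 had a chi-square per degree of freedom of 13.2, and the other control pairs 60.0 to 212. DDC 1 had 93.4 to 104 against the other DDC libraries, which had 16.7 to 23.9 among themselves. Alternatives were other scalings and filters, DESeq2 1.42.0, limma 3.58.1 (voom, and log2 FPKM with pseudocounts of 0.1 and 1 after a minimum of 0.1 FPKM in 4 libraries), dropping each library in turn, and a fit with the replicate number as block. Depth limits the low members, such as Procr, and that limit covers counting error only.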

Additional observations from a re-analysis of the deposited data

Results flagged for a closer look

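Among 66 groups of 4 libraries (33 members by 2 diets), 4 held a library whose gap to its nearest neighbour was a large part of the group's range, and chance gives about 1 in 20. Kng2 was 256 CPM in DDC 1 against 306 to 314 CPM in the other DDC libraries. Proc was 272 CPM in DDC 1 against 233 to 237 CPM. F2r was 46.5 CPM in DDC 3 against 49.3 to 49.6 CPM, a narrow range. In control 2, Plaur stood at 3.61 CPM, while controls 1, 3 and 4 had 1.01 to 1.45 CPM. Its fold change without control 2 stands in the results.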

How the results depend on the processing

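Of the 33 members, 25 kept their direction and their side of the threshold in all 21 alternatives. With library totals alone and with limma on log2 FPKM (pseudocounts 0.1 and 1, and 0.1 without a filter) 11505, 11581, 11639 and 12283 of all genes were higher and 1750, 1821, 1809 and 1745 lower. In that order of settings the log2 fold change of Pros1 was 0.51, 0.50, 0.48 and 0.50, that of Serpinf2 0.14, 0.13, 0.13 and 0.13 and that of Cpb2 0.17, 0.15, 0.15 and 0.15. Kng2 was at 0.00087, 0.00079 and 0.00087 in the 3 FPKM fits. Same-numbered deviations from the group means correlated at -0.262, -0.226, 0.028 and -0.083, and no library correlated best with its own number. Deviations from a mean of 4 libraries depend on each other, so these values cannot settle whether the numbers pair the animals. With the replicate block 4810 genes were higher and 4654 lower, and 21 hepatocyte-made members were lower and 8 others higher, Tfpi losing its call (edgeR adjusted p = 0.0816). It also lost it with limma voom (adjusted p = 0.0636). A sign-flip test over same-numbered pairs (replicate block) called 0 of the 10 ratios, since 4 pairs cannot reach 0.05. Without each library in turn 0 ratios passed, and F8 ran from -0.12 to 0.39. The ratios that changed sign ran from -0.056 to 0.055 for F10/Proc, from -0.25 to 0.15 for Plau/Plat, from -0.67 to 0.19 for Plaur/Plau and from -0.048 to 0.022 for Kng1/Kng2. Without controls 1 and 3, or 2 and 4, omissions chosen after seeing the data, 21 hepatocyte-made members were lower and 8 others higher in both. The cause of these changes was not tested. Plau, Procr and Plat had under 100 counts in each control, which limits their fold changes.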
